A study of Mus musculus with 6 samples.

Results

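The 48 genes described here encode the ligands, receptors, Smad transducers, secreted antagonists, latent binding proteins and Id targets of the TGF-beta and BMP pathways. They are the members of a fixed list of gene symbols, which was proposed with earlier results of these data known, and all 48 were found among the 38561 Ensembl genes counted in 6 mouse RNA sequencing libraries. The libraries form 3 groups of 2: perivascular cells of skeletal muscle sorted by NG2 antibody (NG2 cells), osteosarcomas, and soft tissue sarcomas. All groups carried NG2-Cre;p53flox/flox alleles on a mixed background, so the NG2 cells shared the conditional Trp53 alleles of the tumours and no group was wild type. In such mice the Cspg4 promoter, active in pericytes but also in other NG2-expressing cells, drives the Cre recombinase. Osteosarcoma replicate 1 was a tumour of the right tibia and replicate 2 one of the lumbar spine, and both soft tissue sarcomas were subcutaneous primary tumours. Age and sex of the animals, and whether the libraries of a group came from separate animals, are not given in the sources used here. The tests therefore measure only the variation among these libraries, which may be technical.

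TGF-beta, BMP and activin ligands are secreted dimers that bring together type II and type I serine/threonine kinase receptors. Receptors for TGF-beta and activin phosphorylate Smad2 and Smad3, receptors for BMPs phosphorylate Smad1, Smad5 and Smad9, and both kinds of Smad enter the nucleus with Smad4. Noggin, gremlin, chordin and follistatin bind ligands outside the cell, Smad6 and Smad7 dampen the signal inside it, and the Id genes are classical transcriptional targets of BMP signals. In bone, BMPs drive osteoblast formation and TGF-beta is stored in the matrix in a latent form. In vessels, TGF-beta passes between endothelial cells and pericytes.

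Counts on genes ranged from 27693585 to 58126832 per library. The NG2 cell libraries were all run on flow cell lane 4, the osteosarcomas on lane 5 and the soft tissue sarcomas on lane 6, so lane and group cannot be told apart. The labelled tissues were checked against marker lists, given as summed normalised read counts (CPM, reads of a gene scaled to library size). The 8 pericyte and mural cell genes summed to 907 and 1466 CPM in NG2 cells. In the osteosarcomas they summed to 336.5 and 876 CPM, and in the soft tissue sarcomas to 487 and 371 CPM. Cspg4, the gene of NG2, had 38.6 and 30.6 CPM in NG2 cells and 37.7 to 188 CPM in the tumours. By contrast 7 B cell genes summed to 5178 and 1798 CPM, against 11.2 to 30.5 CPM in the tumours. Endothelial genes, 8 in number, summed to 1030.0 and 1780.0 CPM in NG2 cells and 132 to 402 CPM in the tumours. Granulocyte genes, 7 in number, separated the NG2 cell libraries, with 64.4 and 3237 CPM in replicates 1 and 2. The 8 osteoblast genes summed to 6019 and 19740 CPM in osteosarcoma, and the 7 osteoclast genes to 723 and 14820 CPM. Sp7, a transcription factor of osteoblasts, had 0 counts in both soft tissue sarcomas. In such bulk samples, fewer cells of a type and less RNA per cell cannot be told apart, and the part of these markers in the results below was not tested.

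In osteosarcoma against NG2 cells, 17 of the 46 tested members passed the test: 12 rose and 5 fell. In soft tissue sarcoma against NG2 cells 14 of 46 passed: 10 rose and 4 fell. A gene was called at an adjusted p under 0.05 in edgeR's quasi-likelihood test, adjusted over all 19024 tested genes. Of all tested genes 21.5% were called in osteosarcoma (10.5% higher, 11.0% lower), against 37.0% of the tested members. In soft tissue sarcoma the background was 19.3% (9.89% higher, 9.40% lower), against 30.4% of the tested members. The median log2 fold change of the members was 1.40 in osteosarcoma and 0.21 in soft tissue sarcoma, against 0.04 and 0.00 over all tested genes. With 2 libraries per group, values of most genes separated without overlap. Osteosarcoma and NG2 cell values did so for 65.1% of all tested genes and 76.1% of the tested members. With soft tissue sarcoma in place of osteosarcoma, the shares were 70.4% and 71.7%. Lack of overlap with NG2 cells, mentioned for single members below, is therefore weak evidence by itself. Gdf5 and Gdf6, ligands of joint and skeletal development, were too low to test, with at most 9 counts in any library. Of the members, 9 rose in both comparisons, 2 fell in both, 6 passed in osteosarcoma alone and 3 in soft tissue sarcoma alone. Both comparisons use the same NG2 cell libraries, so their calls are not independent. The joint shares over all tested genes were not counted, so these joint counts are not a result about the members. The plot of the called members by library shows these 20 genes.

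**Figure D1:**
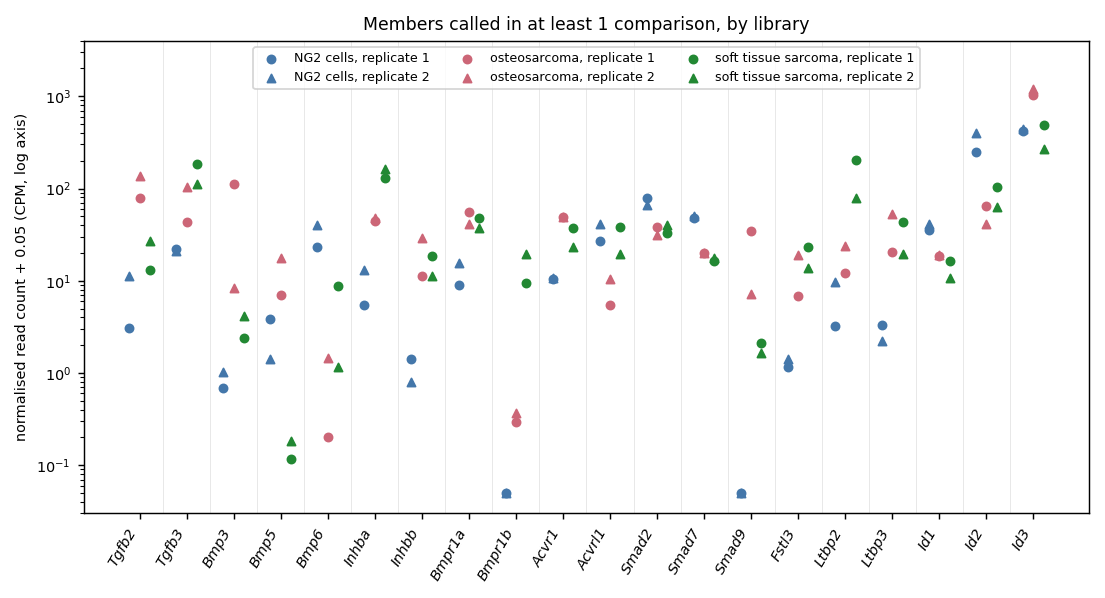
Normalised read counts (CPM plus 0.05, log axis) of the 20 members called in at least 1 comparison with NG2 cells; colours are groups, circles replicate 1 and triangles replicate 2. Smad9 and Bmpr1b lie at the floor of the plot, 0 counts, in both NG2 cell libraries, and Inhba, Acvr1 and Ltbp3 are higher in all 4 tumour libraries than in NG2 cells.

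The calls depended on single libraries, and each group had only 2. Leaving out an NG2 cell or soft tissue sarcoma library also lowered the calls over all tested genes in both comparisons with NG2 cells. Such losses were therefore not confined to the members, but the shares lost were not compared. In soft tissue sarcoma, leaving out either soft tissue sarcoma library ended all 14 member calls, and leaving out either NG2 cell library ended 12 of 14. In osteosarcoma, 2 of the 17 member calls were kept without NG2 cell replicate 1 and 4 without replicate 2, while 11 and 13 were kept without osteosarcoma replicates 1 and 2, and 6 without either soft tissue sarcoma library. No called member changed direction in any of these fits. The rise of Smad9 in osteosarcoma passed in all 6 of them. Fitted to only the 4 libraries compared, without the soft tissue sarcomas, 6 of the 17 osteosarcoma calls were kept: Tgfb2, Inhbb, Acvr1, Smad9, Ltbp3 and Id2. The other 11 had adjusted p from 0.0506 (Bmp6) to 0.138 (Bmpr1b) there. The corresponding fit kept all 14 soft tissue sarcoma calls. Ranges over the fits without 1 library are given with the members below.

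Promoter windows of 4 members are shown because these genes carry the contrasts at the end of the signal: Smad6 and Smad9 had higher values in both osteosarcomas than in any other library, although Smad6 did not pass against NG2 cells, and Id2 and Id3 are Id targets that moved in opposite directions there. Each window runs from 250 bases before to 50 after a RefSeq start (GRCm38.p6), 5′ to 3′ on the strand of the gene. Capitals mark matches, on either strand, to the Smad palindrome GTCTAGAC, the GC-rich BMP element GGCGCC, the cAMP element TGACGTCA, TATAAA and the E-boxes CACGTG and CAGCTG. The Smad6 window is chr9:64022010-64022309, minus strand, the Smad9 window chr3:54755332-54755631, plus strand, the Id2 window chr12:25096043-25096342, minus strand, and the Id3 window chr4:136143572-136143871, plus strand.
Smad6 promoter window: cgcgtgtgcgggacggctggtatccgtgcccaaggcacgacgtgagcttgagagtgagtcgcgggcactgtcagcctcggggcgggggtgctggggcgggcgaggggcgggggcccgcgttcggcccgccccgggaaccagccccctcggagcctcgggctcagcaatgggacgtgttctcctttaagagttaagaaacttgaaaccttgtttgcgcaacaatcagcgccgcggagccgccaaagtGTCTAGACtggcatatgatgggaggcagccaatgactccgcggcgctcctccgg
Smad9 promoter window: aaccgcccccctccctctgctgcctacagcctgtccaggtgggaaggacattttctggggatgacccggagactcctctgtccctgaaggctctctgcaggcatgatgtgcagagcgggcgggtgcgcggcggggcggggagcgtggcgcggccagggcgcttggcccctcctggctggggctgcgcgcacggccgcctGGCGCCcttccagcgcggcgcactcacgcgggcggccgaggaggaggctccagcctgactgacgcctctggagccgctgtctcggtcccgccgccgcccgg
Id2 promoter window: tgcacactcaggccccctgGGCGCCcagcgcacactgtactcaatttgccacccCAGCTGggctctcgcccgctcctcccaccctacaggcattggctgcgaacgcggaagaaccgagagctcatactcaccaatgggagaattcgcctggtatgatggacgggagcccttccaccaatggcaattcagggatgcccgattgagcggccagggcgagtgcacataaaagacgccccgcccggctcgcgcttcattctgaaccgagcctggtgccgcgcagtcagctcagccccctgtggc
Id3 promoter window: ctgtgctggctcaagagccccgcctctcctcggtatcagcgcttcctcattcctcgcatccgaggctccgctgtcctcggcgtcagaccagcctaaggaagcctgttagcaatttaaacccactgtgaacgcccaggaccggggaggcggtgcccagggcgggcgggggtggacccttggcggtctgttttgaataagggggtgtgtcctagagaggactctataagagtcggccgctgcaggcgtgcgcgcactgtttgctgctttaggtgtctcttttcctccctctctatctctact
The Smad6 window held GTCTAGAC at bases 247 to 254, across the start, a match that 0.213% of all 32851 windows of this length contain. The Smad9 and Id2 windows each held GGCGCC, found in 11.9% of all windows, and the Id2 window also held CAGCTG, found in 16.3%. None of the 6 motifs was in the Id3 window. The Smad box GTCT, which is also part of GTCTAGAC, was in all 4 windows but also in 88.0% of all windows. Of the 48 members 33 had a window in the table, with 41 windows in all, and 12 of these 33 held GGCGCC in at least 1 window. The 11.9% above is a share of single windows, so it is not a background for this count of genes. A match describes the letters of a window, not binding.

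Among the TGF-beta ligands, Tgfb3 rose in both tumour types and Tgfb2 in osteosarcoma, while Tgfb1 did not pass in either. Tgfb3 (ENSMUSG00000021253, chromosome 12, 86056745 to 86079041, GRCm38), the isoform best known from palate and lung development, had 21.9 and 21.1 CPM in the NG2 libraries, 43.8 and 103 in the osteosarcomas and 183 and 112 in the soft tissue sarcomas. All 4 tumour libraries exceeded both NG2 cell libraries. Tgfb3 rose 3.41-fold in osteosarcoma (log2 fold change of 1.77 ± 0.48, adjusted p = 0.0481; SE, n = 2 per group) and 6.86-fold in soft tissue sarcoma (log2 fold change of 2.78 ± 0.50, adjusted p = 0.0194). Exons of other annotated genes overlap 12.4% of its exon length, and the library kit did not mark strand. Tgfb2, the isoform of heart and eye development, had 2.99 and 11.2 CPM in the NG2 libraries, 78.5 and 136 in the osteosarcomas and 13.1 and 27.0 in the soft tissue sarcomas. It rose 15.1-fold in osteosarcoma (log2 fold change of 3.92 ± 0.78, adjusted p = 0.0224). The soft tissue sarcomas lay between the other groups, without overlap (adjusted p = 0.180 against NG2 cells). Tgfb1, the isoform of immune regulation and bone matrix, had 15.7 and 9.08 CPM in the NG2 libraries, 9.70 and 9.64 in the osteosarcomas and 4.38 and 4.58 in the soft tissue sarcomas (adjusted p = 0.610 and 0.0806). Its soft tissue sarcoma values were below those of all other libraries. Without single libraries, the log2 fold changes ranged 1.03 to 2.22 for Tgfb3 and 3.25 to 5.16 for Tgfb2 in osteosarcoma, and 2.38 to 3.06 for Tgfb3 in soft tissue sarcoma. The call of Tgfb3 in osteosarcoma was lost in 5 of the 6 fits without 1 library (adjusted p up to 0.165, kept without osteosarcoma replicate 1) and missed the threshold with RLE size factors (adjusted p = 0.0502).

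On a per-length scale, which allows levels of different genes to be set side by side, Tgfb3 was the highest of the TGF-beta ligands in every group. Its mean was 6.35, 21.7 and 43.6 RPKM, which is CPM divided by exon length, in NG2 cells, osteosarcoma and soft tissue sarcoma. Tgfb1 came to 2.46, 1.92 and 0.889 RPKM and Tgfb2 to 1.22, 18.5 and 3.46 RPKM. In osteosarcoma the libraries of Tgfb2 (13.6 and 23.5 RPKM) and Tgfb3 (12.9 and 30.4 RPKM) overlapped, so their order there was not beyond the spread.

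The activin subunit genes Inhba and Inhbb rose in both tumour types. Inhba (ENSMUSG00000041324, chromosome 13, 16011851 to 16031621) encodes the beta A subunit of activin A and had 5.37 and 13.2 CPM in the NG2 libraries, 44.3 and 47.5 in the osteosarcomas and 129 and 162 in the soft tissue sarcomas. The 3 groups did not overlap, with soft tissue sarcoma highest. Inhba rose 4.94-fold in osteosarcoma (log2 fold change of 2.31 ± 0.47, adjusted p = 0.0235) and 15.7-fold in soft tissue sarcoma (log2 fold change of 3.97 ± 0.50, adjusted p = 0.0108). Inhbb (ENSMUSG00000037035, chromosome 1, 119415465 to 119422248), the beta B subunit of activin B, had 1.39 and 0.757 CPM in the NG2 libraries, 11.1 and 29.2 in the osteosarcomas and 18.5 and 11.2 in the soft tissue sarcomas. It rose 18.8-fold in osteosarcoma (log2 fold change of 4.23 ± 0.72, adjusted p = 0.0159) and 13.9-fold in soft tissue sarcoma (log2 fold change of 3.79 ± 0.70, adjusted p = 0.0212), and the tumour types overlapped. Without single libraries the log2 fold change of Inhba ranged 1.79 to 3.09 and 3.48 to 4.76 in the respective tumour types, and that of Inhbb 3.38 to 4.73 and 3.38 to 4.31. Per length, Inhba was the highest member of the BMP, GDF and activin ligands in soft tissue sarcoma, at 22.8 RPKM.

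The BMP ligands had no common direction. Bmp3, a BMP of bone that antagonises other BMPs, had 0.637 and 0.963 CPM in the NG2 libraries, 111 and 8.25 in the osteosarcomas and 2.37 and 4.11 in the soft tissue sarcomas. It rose in osteosarcoma (log2 fold change of 6.21 ± 1.33, adjusted p = 0.0271), from very unequal libraries, and its log2 fold change without single libraries ranged 3.33 to 7.11. Bmp6, an osteogenic BMP that endothelial cells of the liver also use to set iron balance, had 23.2 and 39.8 CPM in the NG2 libraries, 0.152 and 1.39 in the osteosarcomas and 8.66 and 1.11 in the soft tissue sarcomas. Bmp6 fell 42.1-fold in osteosarcoma (log2 fold change of -5.40 ± 1.44, adjusted p = 0.0467), and both soft tissue sarcoma values were also below NG2 cells (adjusted p = 0.177). Bmp5, a BMP of cartilage and ear shape, had 3.77 and 1.38 CPM in the NG2 libraries, 7.03 and 17.5 in the osteosarcomas and 0.0671 and 0.135 in the soft tissue sarcomas. It fell 25.8-fold in soft tissue sarcoma (log2 fold change of -4.69 ± 0.96, adjusted p = 0.0264), where each library held 4 counts, and lay above NG2 cells in both osteosarcomas (adjusted p = 0.0978). An antisense gene, Gm26903, overlaps 46.7% of the exon length of Bmp5, so its counts are uncertain. Without single libraries, the log2 fold changes of Bmp6 in osteosarcoma ranged -7.67 to -4.53 and those of Bmp5 in soft tissue sarcoma -5.25 to -3.78. The osteosarcoma call of Bmp6 was kept in only 1 of the 6 fits without 1 library. It was also lost with a replicate block in the model (adjusted p = 0.0789).

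The remaining BMP and GDF ligands did not pass in either comparison. Bmp2, an inducer of bone formation, had 4.16 and 2.50 CPM in the NG2 libraries, 11.2 and 6.97 in the osteosarcomas and 7.42 and 8.19 in the soft tissue sarcomas, and all tumour libraries exceeded NG2 cells (adjusted p = 0.109 and 0.161). Bmp4, its close relative, had 6.51 and 20.1 CPM in the NG2 libraries, 29.1 and 35.3 in the osteosarcomas and 7.63 and 2.19 in the soft tissue sarcomas. Per length Bmp4 had the highest mean of the BMP, GDF and activin ligands in osteosarcoma (14.3 RPKM), although Bmp3 exceeded it in replicate 1, and it did not overlap between the tumour types. Bmp7 reads came almost all from a single tumour: it had 32.2 and 0.0711 CPM in osteosarcoma replicates 1 and 2, against 0.997 and 1.26 CPM for the NG2 libraries and 0 counts in both soft tissue sarcomas. Without osteosarcoma replicate 2, Bmp7 passed in osteosarcoma (log2 fold change 4.83, adjusted p = 0.0164). With 0 counts in soft tissue sarcoma, it was at least 33.6-fold lower there than in NG2 cells over the group (adjusted p = 0.153), and passed without either osteosarcoma library (adjusted p = 0.0290 and 0.00957). Gdf10, a ligand of the BMP3 subfamily, had 1.41 and 1.83 CPM in the NG2 libraries, 0 and 1.28 in the osteosarcomas and 1.90 and 1.99 in the soft tissue sarcomas. It had 0 counts in osteosarcoma replicate 1 and passed as lower without replicate 2 (adjusted p = 0.0245). Without osteosarcoma replicate 2, Bmp3 passed as higher in soft tissue sarcoma as well (log2 fold change 2.00, adjusted p = 0.0284).

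**Figure D2:**
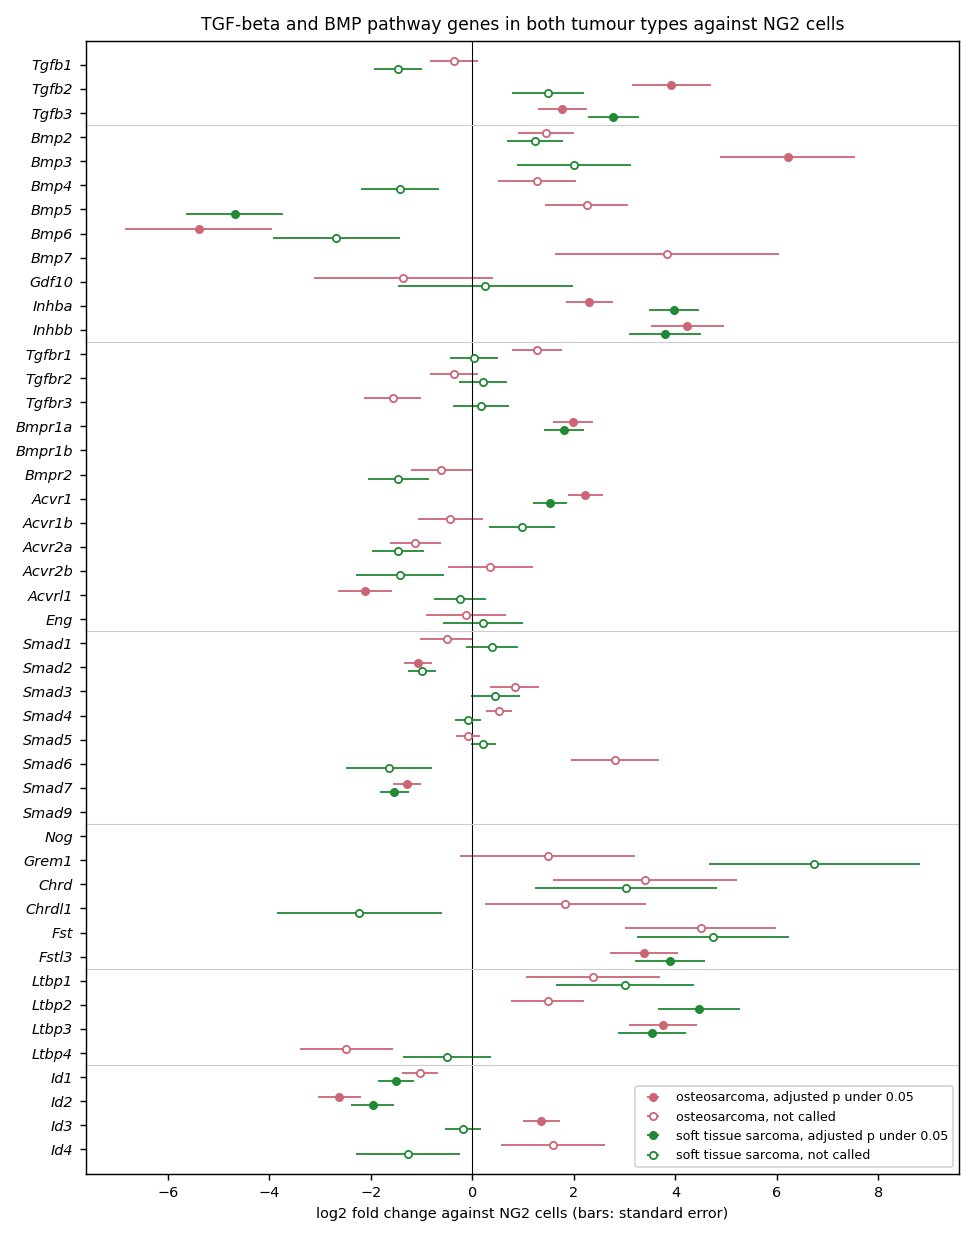
Log2 fold change of each tested member against NG2 cells in osteosarcoma and soft tissue sarcoma, with its standard error; filled points have an adjusted p under 0.05, and grey lines divide the roles. Bmpr1b, Smad9 and Nog, and Bmp7 in soft tissue sarcoma, are not drawn because a group held at most 3 counts; Inhba, Inhbb, Bmpr1a, Acvr1, Fstl3 and Ltbp3 have filled points right of 0 in both tumour types.

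Of the 12 receptors and co-receptors, 3 rose and 1 fell in osteosarcoma (33.3% called, against 21.5% of all tested genes). In soft tissue sarcoma 3 rose (25%, against 19.3%). Bmpr1a, Bmpr1b and Acvr1, type I receptors of the BMP branch, rose in both, while Acvrl1, a further type I receptor, fell in osteosarcoma. Bmpr1a (ENSMUSG00000021796, chromosome 14, 34410734 to 34503341), the widely expressed receptor ALK3, had 9.03 and 15.5 CPM in the NG2 libraries, 55.3 and 41.4 in the osteosarcomas and 48.2 and 37.6 in the soft tissue sarcomas. It rose 3.94-fold in osteosarcoma (log2 fold change of 1.98 ± 0.39, adjusted p = 0.0223) and 3.50-fold in soft tissue sarcoma (log2 fold change of 1.81 ± 0.39, adjusted p = 0.0297). Acvr1 (ENSMUSG00000026836, chromosome 2, 58388644 to 58567157), the receptor ALK2 whose activating mutations cause heterotopic bone in patients, had 10.4 and 10.6 CPM in the NG2 libraries, 48.9 and 49.1 in the osteosarcomas and 37.2 and 23.2 in the soft tissue sarcomas. Acvr1 rose 4.67-fold (log2 fold change of 2.22 ± 0.35, adjusted p = 0.0131) and 2.88-fold (log2 fold change of 1.53 ± 0.34, adjusted p = 0.0326). For both receptors, every tumour library exceeded every NG2 cell library, although separation from NG2 cells was common among all tested genes. Without single libraries, the log2 fold changes ranged 1.64 to 2.42 and 1.49 to 2.25 for Bmpr1a and 2.19 to 2.24 and 1.15 to 1.80 for Acvr1.

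Bmpr1b (ENSMUSG00000052430, chromosome 3, 141837136 to 142169425), the receptor ALK6 of cartilage and limb, had 0 counts in both NG2 cell libraries. It had 13 and 9 counts in osteosarcoma (0.246 and 0.320 CPM) and 556 and 573 counts in soft tissue sarcoma (9.33 and 19.3 CPM). With 3 counts over the NG2 cell group in place of 0, Bmpr1b was at least 7.52-fold higher in osteosarcoma (adjusted p = 0.0256) and at least 380.5-fold higher in soft tissue sarcoma (adjusted p = 0.00990). These bounds cover counting error only, as no molecular identifiers separated PCR copies of a molecule.

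Acvrl1, the endothelial type I receptor ALK1, fell in osteosarcoma. It had 26.8 and 41.2 CPM in the NG2 libraries, 5.40 and 10.3 in the osteosarcomas and 38.3 and 19.2 in the soft tissue sarcomas, a 4.33-fold fall in osteosarcoma (log2 fold change of -2.11 ± 0.54, adjusted p = 0.0417; -2.65 to -1.75 without single libraries), while soft tissue sarcoma overlapped NG2 cells (adjusted p = 0.764). The 8 endothelial markers, of which 4 fell in each tumour comparison and none was at 0, summed to 132 and 402 CPM in the osteosarcomas against 236 and 174 in the soft tissue sarcomas. Their part in the fall of Acvrl1 was not tested. The osteosarcoma call of Acvrl1 was kept in only 1 of the 6 fits without 1 library. It was also lost with a replicate block (adjusted p = 0.0718) and with only the 4 libraries compared (adjusted p = 0.0639). Eng, the endothelial co-receptor endoglin, had 63.3 and 96.8 CPM in the NG2 libraries, 19.7 and 127 in the osteosarcomas and 107 and 77.3 in the soft tissue sarcomas (adjusted p = 0.925 and 0.875). Eng passed as lower in osteosarcoma without osteosarcoma replicate 2 (log2 fold change -2.02, adjusted p = 0.0344), the library in which it was high.

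The receptors of TGF-beta itself did not pass. Tgfbr2, the type II receptor, had 282 and 191 CPM in the NG2 libraries, 103 and 264 in the osteosarcomas and 258 and 290.0 in the soft tissue sarcomas. Its per-length mean was 28.9, 22.4 and 33.5 RPKM in the 3 groups, the highest receptor mean in each. In NG2 cells and osteosarcoma its libraries overlapped those of Eng, which exceeded it in NG2 cell replicate 2 (23.9 against 23.3 RPKM). The type I receptor Tgfbr1 had 48.5 and 53.4 CPM in the NG2 libraries, 67.6 and 179 in the osteosarcomas and 60.6 and 43.7 in the soft tissue sarcomas (adjusted p = 0.110 in osteosarcoma, and log2 fold change 1.78, adjusted p = 0.0247 without osteosarcoma replicate 1). The co-receptor Tgfbr3, or betaglycan, was below NG2 cells in both osteosarcomas, with 40.7 and 94.9 CPM in the NG2 libraries, 15.9 and 29.7 in the osteosarcomas and 98.2 and 53.5 in the soft tissue sarcomas (adjusted p = 0.0948 and 0.854). Of the activin and BMP type II receptors, Bmpr2 had 16.7 and 55.6 CPM in the NG2 libraries, 26.1 and 21.2 in the osteosarcomas and 15.8 and 10.5 in the soft tissue sarcomas, and NG2 cell replicate 2 stood above the others. Acvr2a was lower in all 4 tumour libraries than in NG2 cells, with 11.3 and 23.9 CPM in the NG2 libraries, 7.16 and 8.96 in the osteosarcomas and 6.64 and 6.03 in the soft tissue sarcomas (adjusted p = 0.159 and 0.0926). Acvr2b and the activin type I receptor Acvr1b lay between 1.04 and 11.7 CPM in all libraries.

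Of the 8 Smads, 1 rose and 2 fell in osteosarcoma (37.5% called, against 21.5% of all tested genes). In soft tissue sarcoma 1 rose and 1 fell (25%, against 19.3%). Smad9 (ENSMUSG00000027796, chromosome 3, 54755582 to 54801257), a BMP-regulated Smad with weak transcriptional activity, had 0 counts in both NG2 cell libraries. It had 1813 and 203 counts in osteosarcoma (34.4 and 7.22 CPM) and 122 and 47 counts in soft tissue sarcoma (2.05 and 1.58 CPM). Smad9 was at least 552-fold higher in osteosarcoma (adjusted p = 0.0112) and at least 48.2-fold higher in soft tissue sarcoma (adjusted p = 0.0229), with 3 counts over the NG2 cell group in place of 0. Of the other BMP-regulated Smads, Smad5 was nearly level, with 64.6 and 59.97 CPM in the NG2 libraries, 59.8 and 57.6 in the osteosarcomas and 67.8 and 76.6 in the soft tissue sarcomas (adjusted p = 0.823 and 0.556). Smad1 had 30.5 and 92.2 CPM in the NG2 libraries, 41.9 and 44.4 in the osteosarcomas and 91.6 and 68.7 in the soft tissue sarcomas, and the groups overlapped.

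Smad7, an inhibitory Smad that TGF-beta itself induces, fell in both tumour types. It had 47.9 and 50.5 CPM in the NG2 libraries, 20.1 and 20.1 in the osteosarcomas and 16.4 and 17.5 in the soft tissue sarcomas, with close replicates in every group. The falls were 2.45-fold in osteosarcoma (log2 fold change of -1.29 ± 0.28, adjusted p = 0.0279) and 2.91-fold in soft tissue sarcoma (log2 fold change of -1.54 ± 0.28, adjusted p = 0.0205), and ranged -1.34 to -1.26 and -1.62 to -1.50 on the log2 scale without single libraries. The osteosarcoma call of Smad7 was lost in all 6 fits without 1 library. It was also lost with a replicate block (adjusted p = 0.0565) and with only the 4 libraries compared (adjusted p = 0.0681). Smad7 had no promoter window here, so it was not searched for the palindrome found in the Smad6 window. Smad6, the inhibitory Smad of BMP signals, differed in expression pattern from Smad7. Its values were 0.720 and 2.41 CPM in the NG2 libraries, 15.1 and 6.97 in the osteosarcomas and 0.621 and 0.371 in the soft tissue sarcomas. Both osteosarcomas lay above all other libraries, but the test against NG2 cells was not passed (log2 fold change of 2.81 ± 0.86, adjusted p = 0.0651). Smad2 fell 2.10-fold in osteosarcoma (log2 fold change of -1.07 ± 0.28, adjusted p = 0.0452; -1.26 to -0.94 without single libraries) and was similarly placed in soft tissue sarcoma (log2 fold change of -0.995 ± 0.28, adjusted p = 0.0571), with 79.7 and 66.4 CPM in the NG2 libraries, 38.1 and 31.4 in the osteosarcomas and 33.1 and 40.2 in the soft tissue sarcomas. That call in osteosarcoma was lost in all 6 fits without 1 library (adjusted p = 0.0684 to 0.135), with upper quartile scaling (adjusted p = 0.0543) and with no filter on low counts (adjusted p = 0.0631). In soft tissue sarcoma Smad2 passed without either osteosarcoma library (adjusted p = 0.0481 and 0.0474). Smad3, its partner in TGF-beta signals, did not pass, with 13.1 and 21.1 CPM in the NG2 libraries, 23.9 and 36.8 in the osteosarcomas and 31.0 and 15.7 in the soft tissue sarcomas. The common partner Smad4 did not pass either, with 48.8 and 53.0 CPM in the NG2 libraries, 79.3 and 66.4 in the osteosarcomas and 50.1 and 45.5 in the soft tissue sarcomas, and its mean per-length level was 13.7, 19.6 and 12.9 RPKM in NG2 cells, osteosarcoma and soft tissue sarcoma. Smad4 was the highest Smad in both osteosarcomas on that scale. It overlapped Smad1 in NG2 cells (Smad1 at 4.87 and 14.7 RPKM) and in soft tissue sarcoma (14.6 and 11.0 RPKM), so their order there was not beyond the spread.

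Fstl3 was the antagonist that rose in both tumour types. Fstl3 (ENSMUSG00000020325, chromosome 10, 79777272 to 79782630) encodes a follistatin relative that binds activins and had 1.11 and 1.35 CPM in the NG2 libraries, 6.82 and 19.0 in the osteosarcomas and 23.1 and 13.8 in the soft tissue sarcomas. It rose 10.5-fold in osteosarcoma (log2 fold change of 3.39 ± 0.67, adjusted p = 0.0226) and 14.9-fold in soft tissue sarcoma (log2 fold change of 3.90 ± 0.69, adjusted p = 0.0187), with ranges of 2.47 to 3.91 and 3.48 to 4.198 without single libraries. Exons of Prss57, on the other strand, overlap 47.3% of its exon length, so reads of the pair cannot be told apart in these libraries. Fst, follistatin itself, had 0.0554 and 0.665 CPM in the NG2 libraries, 1.88 and 14.8 in the osteosarcomas and 13.7 and 6.07 in the soft tissue sarcomas, above NG2 cells in all 4 tumours but not past the threshold (adjusted p = 0.0776 and 0.0735). It passed in osteosarcoma without osteosarcoma replicate 1 (log2 fold change 5.31, adjusted p = 0.0455), and in soft tissue sarcoma without either osteosarcoma library (4.73, adjusted p = 0.0370 and 4.75, adjusted p = 0.0421).

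Grem1, gremlin, a BMP antagonist of mesenchymal cells, was abundant in soft tissue sarcoma, with 1.33 and 0.894 CPM in the NG2 libraries, 0 and 6.33 in the osteosarcomas and 78.0 and 159 in the soft tissue sarcomas. Both soft tissue sarcomas stood far above every other library, and Grem1 was per length the highest antagonist there (28.5 RPKM). The test did not pass (log2 fold change of 6.73 ± 2.08, adjusted p = 0.0697). The osteosarcomas were divided, with 0 and 178 counts, and the direction in osteosarcoma turned with the library left out. Grem1 passed as higher without osteosarcoma replicate 1 (log2 fold change 2.47, adjusted p = 0.0370) and as lower without replicate 2 (adjusted p = 0.0166). Leaving out either osteosarcoma also moved Grem1 past the threshold in soft tissue sarcoma (log2 fold changes 6.71, adjusted p = 0.00423 and 6.74, adjusted p = 0.00398). Noggin (Nog) and chordin (Chrd) were low everywhere, at most 1.60 and 2.52 CPM, both in osteosarcoma replicate 2. Nog had 2 counts in all NG2 cells. Chrdl1, a chordin relative, had 3.35 and 7.57 CPM in the NG2 libraries, 37.9 and 0.996 in the osteosarcomas and 2.01 and 0.270 in the soft tissue sarcomas, high in osteosarcoma replicate 1 alone.

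**Figure D3:**
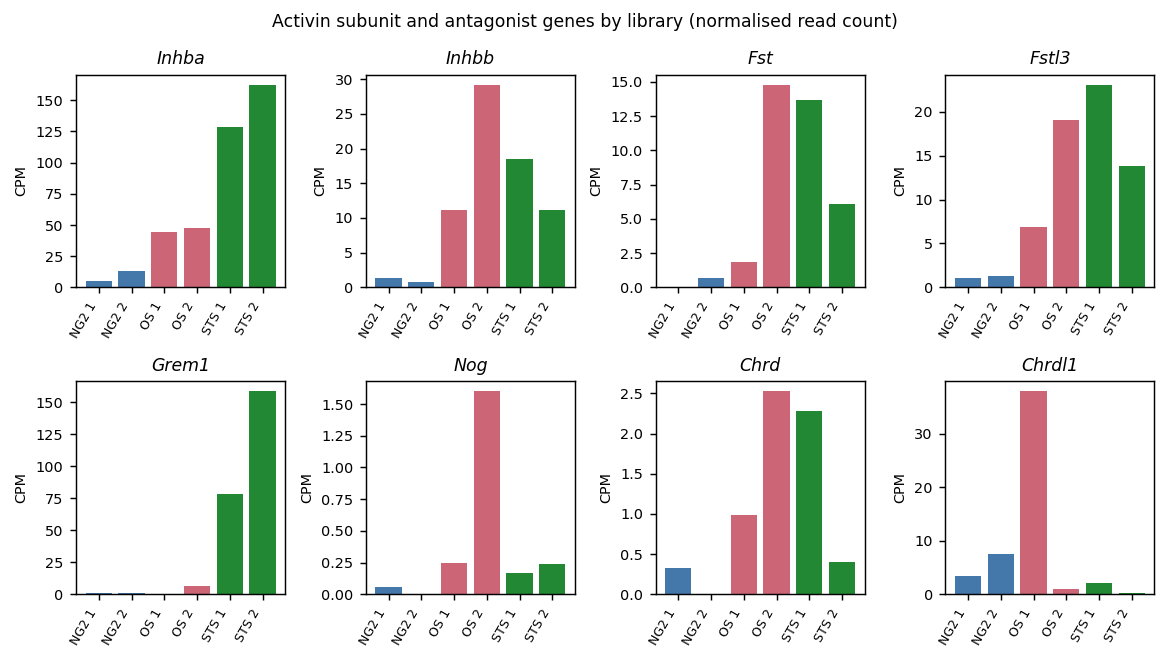
Normalised read counts (CPM, axes from 0) of the activin subunit genes and the 6 antagonists, 1 bar per library; NG2, OS and STS stand for NG2 cells, osteosarcoma and soft tissue sarcoma, followed by the replicate. Inhba, Inhbb, Fst and Fstl3 are higher in all 4 tumours than in NG2 cells, Grem1 reaches 78.0 and 159 CPM in soft tissue sarcoma, and Chrdl1 is high in osteosarcoma replicate 1 alone.

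Latent TGF-beta binding proteins tether TGF-beta to the matrix. Of the 4, 1 rose in osteosarcoma (25% called, against 21.5% of all tested genes) and 2 in soft tissue sarcoma (50%, against 19.3%). Ltbp3 (ENSMUSG00000024940, chromosome 19, 5740904 to 5758532), needed for normal bone and teeth, had 3.24 and 2.15 CPM in the NG2 libraries, 20.5 and 52.6 in the osteosarcomas and 43.2 and 19.7 in the soft tissue sarcomas. It rose 13.5-fold in osteosarcoma (log2 fold change of 3.76 ± 0.68, adjusted p = 0.0181) and 11.7-fold in soft tissue sarcoma (log2 fold change of 3.54 ± 0.67, adjusted p = 0.0221). Ltbp2, a matrix protein of elastic tissue that does not bind TGF-beta, had 3.16 and 9.72 CPM in the NG2 libraries, 12.1 and 24.0 in the osteosarcomas and 206 and 79.0 in the soft tissue sarcomas. Ltbp2 rose 22.1-fold in soft tissue sarcoma (log2 fold change of 4.47 ± 0.81, adjusted p = 0.0200), and osteosarcoma lay between the other groups (adjusted p = 0.181). Ltbp1 had 18.0 and 42.1 CPM in the NG2 libraries, 11.5 and 301 in the osteosarcomas and 316 and 166 in the soft tissue sarcomas, with the low tibial osteosarcoma apart from the other tumours (adjusted p = 0.235 and 0.165). Without osteosarcoma replicate 1, Ltbp1 passed in osteosarcoma (log2 fold change 3.29, adjusted p = 0.0245) and in soft tissue sarcoma (2.98, adjusted p = 0.0166). It also passed in soft tissue sarcoma without osteosarcoma replicate 2 (3.003, adjusted p = 0.0171). Ltbp4, a binding protein of elastic fibres, was below NG2 cells in both osteosarcomas, with 58.1 and 84.3 CPM in the NG2 libraries, 3.20 and 22.3 in the osteosarcomas and 68.7 and 31.9 in the soft tissue sarcomas (adjusted p = 0.0996, and log2 fold change -4.47, adjusted p = 0.0156 without osteosarcoma replicate 2). Per length, Ltbp4 was the highest of the 4 in both NG2 cell libraries and Ltbp1 in both soft tissue sarcomas, where the ranges of Ltbp1 and Ltbp2 overlapped. In osteosarcoma the order differed between the libraries, with Ltbp1 at 1.08 and 28.1 RPKM and Ltbp3 at 2.26 and 5.80 RPKM. Without single libraries the log2 fold changes of Ltbp3 ranged 2.92 to 4.24 and 2.87 to 3.96, and that of Ltbp2 in soft tissue sarcoma 3.62 to 5.49.

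The Id genes, whose proteins block basic helix-loop-helix factors, did not move together. Id2 (ENSMUSG00000020644, chromosome 12, 25093799 to 25097140) had 247 and 403 CPM in the NG2 libraries, 64.2 and 41.4 in the osteosarcomas and 103 and 63.3 in the soft tissue sarcomas, lower in every tumour than in NG2 cells. It fell 6.15-fold in osteosarcoma (log2 fold change of -2.62 ± 0.43, adjusted p = 0.0149) and 3.91-fold in soft tissue sarcoma (log2 fold change of -1.97 ± 0.42, adjusted p = 0.0294). Id3 (ENSMUSG00000007872, chromosome 4, 136143497 to 136145755) had 422 and 445 CPM in the NG2 libraries, 1019.9 and 1204 in the osteosarcomas and 493 and 268 in the soft tissue sarcomas, highest in both osteosarcomas. Id3 rose 2.57-fold in osteosarcoma (log2 fold change of 1.36 ± 0.36, adjusted p = 0.0449), while its soft tissue sarcoma values overlapped NG2 cells (adjusted p = 0.729). The osteosarcoma call of Id3 was lost in all 6 fits without 1 library. It was also lost with a replicate block (adjusted p = 0.0715) and with only the 4 libraries compared (adjusted p = 0.0686). Id1 had 35.3 and 41.6 CPM in the NG2 libraries, 18.6 and 19.1 in the osteosarcomas and 16.4 and 10.6 in the soft tissue sarcomas. It fell 2.84-fold in soft tissue sarcoma (log2 fold change of -1.51 ± 0.36, adjusted p = 0.0371) and was also below NG2 cells in both osteosarcomas (log2 fold change of -1.03 ± 0.35, adjusted p = 0.0844). Id4 was low, with 0.720 and 1.77 CPM in the NG2 libraries, 2.10 and 5.44 in the osteosarcomas and 0.805 and 0.202 in the soft tissue sarcomas. Without single libraries, the log2 fold changes ranged -3.002 to -2.23 and -2.36 to -1.57 for Id2, 1.23 to 1.44 for Id3 in osteosarcoma and -1.86 to -1.25 for Id1 in soft tissue sarcoma.

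Per length, Id3 was the highest of all 48 members in every group, at 242, 621 and 212 RPKM. Id2 was the next in NG2 cells (133 RPKM), at a level that fell to 21.7 RPKM in osteosarcoma. Lymphocytes also express Id2 and Id3, and the B cell and T cell markers, 7 and 6 genes that all fell in both tumour comparisons, summed to 5178 and 1798 CPM and 412 and 581 CPM in NG2 cells. The part of lymphocytes in the levels of Id2, Id3 and Smad7 was not tested.

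**Figure D4:**
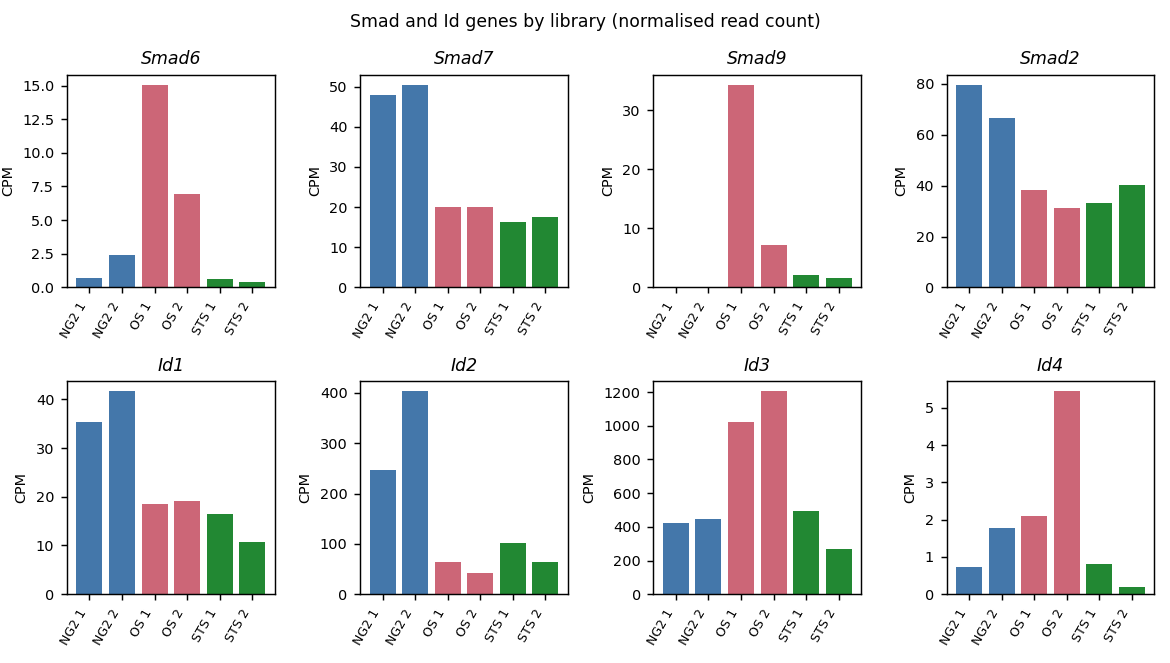
Normalised read counts (CPM, axes from 0) of 4 Smad and the 4 Id genes, 1 bar per library, labelled by group (NG2 cells, OS for osteosarcoma, STS for soft tissue sarcoma) and replicate. Smad7 and Id2 are lower in all 4 tumours than in NG2 cells, Id3 and Smad6 are highest in the osteosarcomas, and Smad9 has 0 counts in NG2 cells.

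Between the tumour types no member passed: 0 of 46 were called in soft tissue sarcoma against osteosarcoma, where edgeR called 0.142% of all tested genes. At an unadjusted p under 0.05 there were 16 of 46 members (34.8%), against 15.9% of all tested genes. DESeq2 called 14 of the 46 members (5 higher, 9 lower in soft tissue sarcoma), against 1916 of all 19024 tested genes. The median log2 difference of the members was -0.23, against -0.03 over all tested genes. Groups did not overlap for 31 of the 46 members, 67.4%, against 50.3% of all tested genes. The lowest adjusted p was that of Bmp5 (log2 fold change -6.94 ± 1.05, adjusted p = 0.0756), followed by Bmpr1b (5.65 ± 0.81, adjusted p = 0.0867). With no filter on low counts these 2 genes passed (adjusted p = 0.0174 and 0.0245).

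Of those 16 members, 10 were lower and 6 higher in soft tissue sarcoma. The groups did not overlap for any of them, which adds no support, because the 16 were picked by p-value in this same comparison. The lower ones included the ligands Bmp3, Bmp4, Bmp5 and Tgfb2, the Smads Smad6 and Smad9, the targets Id3 and Id4, and the receptor Tgfbr1, with log2 fold changes from -6.94 for Bmp5 to -1.24 for Tgfbr1 and adjusted p from 0.0756 to 0.297. Bmp7, the remaining lower gene, with 0 counts in soft tissue sarcoma, was at least 479.9-fold lower there over the group, but its osteosarcoma reads came almost all from 1 library (adjusted p = 0.220). Besides Bmpr1b, the higher ones were Grem1 (5.25 ± 1.93), Ltbp2 (2.98 ± 0.75), Acvrl1 (1.87 ± 0.53), Tgfbr3 (1.74 ± 0.57) and Inhba (1.66 ± 0.45), log2 fold changes with adjusted p from 0.161 to 0.273. Without osteosarcoma replicate 2, Bmp7, Bmp3 and Grem1 passed between the tumour types (adjusted p = 0.0217, 0.0218 and 0.0156). The osteoblast markers stood at 6019 and 19740 CPM in the osteosarcomas against 1966 and 2224 in the soft tissue sarcomas, where Spp1 gave most of the sum, and their part in these differences was not tested.

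**Figure D5:**
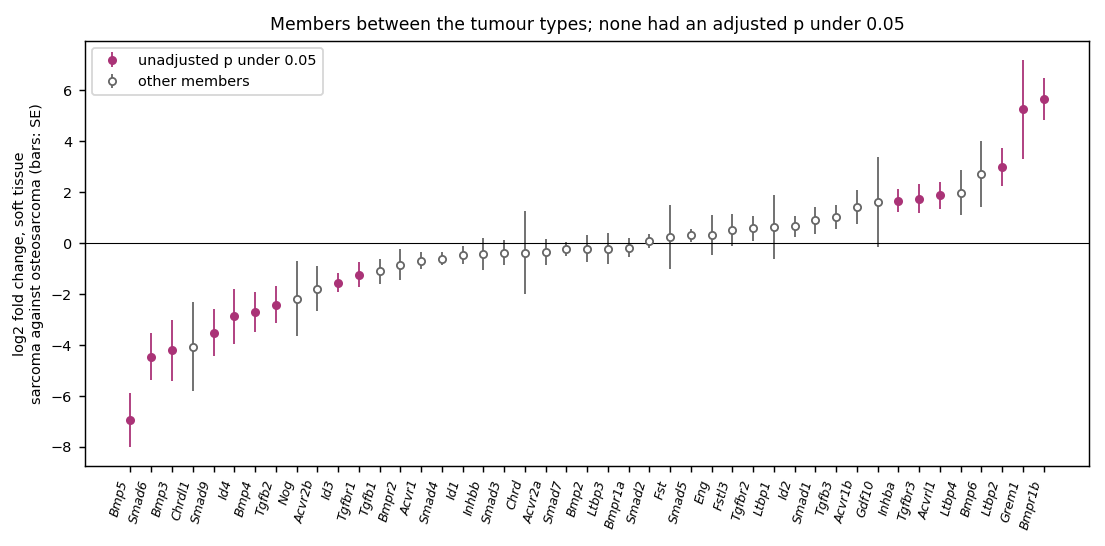
Log2 fold change of 45 members in soft tissue sarcoma against osteosarcoma, in order, with standard errors; filled points have an unadjusted p under 0.05 and Bmp7, with 0 counts in soft tissue sarcoma, is not drawn. Bmp5 and Smad6 lie at the low end and Grem1 and Bmpr1b at the high end, and no point has an adjusted p under 0.05.

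Other genes of the pathways were read from lists of further ligands, receptors, extracellular regulators, intracellular regulators and target genes. The share of all tested genes called was 21.5% in osteosarcoma and 19.3% in soft tissue sarcoma, and is the background for each count. Of 10 tested ligands and ligand-processing genes, 1 rose and 1 fell in osteosarcoma, and 1 rose in soft tissue sarcoma, shares at or below that background. Bmp1, a protease that cuts procollagen and chordin, had 5.65 and 13.0 CPM in the NG2 libraries, 279.9 and 648 in the osteosarcomas and 148 and 59.8 in the soft tissue sarcomas and rose in both (log2 fold change of 5.64 ± 0.79, adjusted p = 0.0101 and log2 fold change of 3.48 ± 0.71, adjusted p = 0.0265). Lefty1, a secreted inhibitor of Nodal, had 1.97 and 3.14 CPM in the NG2 libraries, 0 and 0.0356 in the osteosarcomas and 11.8 and 9.57 in the soft tissue sarcomas. It fell in osteosarcoma, to 1 count over the group (adjusted p = 0.0137), and its soft tissue sarcoma values were above NG2 cells (adjusted p = 0.120).

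Of 4 tested receptors and co-receptors outside the 48 genes, 2 rose and 1 fell in osteosarcoma (3 of 4 called), and 1 rose in soft tissue sarcoma (1 of 4). Amhr2, the type II receptor for anti-Muellerian hormone, had 6.71 and 17.3 CPM in osteosarcoma and 0 counts in the 4 other libraries, which makes it at least 319-fold higher than in NG2 cells (adjusted p = 0.0171). Bambi, a decoy receptor, also rose in osteosarcoma, with 4.63 and 8.96 CPM in the NG2 libraries, 71.9 and 23.0 in the osteosarcomas and 11.0 and 14.8 in the soft tissue sarcomas (log2 fold change of 2.80 ± 0.67, adjusted p = 0.0354). Rgmb, a BMP co-receptor, fell in osteosarcoma (log2 fold change of -2.21 ± 0.49, adjusted p = 0.0301), and its relative Rgma rose in soft tissue sarcoma (log2 fold change of 3.56 ± 0.67, adjusted p = 0.0221).

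Of 18 tested extracellular regulators and activators, 3 rose and 2 fell in osteosarcoma (27.8% called, against 21.5% of all tested genes) and 5 rose and 2 fell in soft tissue sarcoma (38.9%, against 19.3%). Fstl1, a secreted follistatin-like glycoprotein, had 80.5 and 71.5 CPM in the NG2 libraries, 208 and 504 in the osteosarcomas and 1269 and 1147 in the soft tissue sarcomas and rose in both (log2 fold change of 2.23 ± 0.46, adjusted p = 0.0240 and log2 fold change of 3.99 ± 0.49, adjusted p = 0.0103). Nbl1, a BMP antagonist of the DAN family, rose by 2.95 and 3.65 on the log2 scale (adjusted p = 0.0186 and 0.0140), and Emilin1, which restrains TGF-beta precursor processing, by 4.43 and 3.91 (adjusted p = 0.0159 and 0.0220). Nrros, which presents latent TGF-beta on macrophages and microglia, had 262 and 174 CPM in the NG2 libraries, 48.8 and 44.9 in the osteosarcomas and 89.6 and 77.2 in the soft tissue sarcomas and fell in both (log2 fold change of -2.22 ± 0.30, adjusted p = 0.00965 and log2 fold change of -1.39 ± 0.30, adjusted p = 0.0294). Cer1, a secreted inhibitor of Nodal and BMPs, had 3.54 and 3.54 CPM in soft tissue sarcoma and 0 counts in all other libraries, at least 94.0-fold higher than in NG2 cells (adjusted p = 0.0251). The other calls of this list were Fbn1, the matrix scaffold of latent complexes, higher in soft tissue sarcoma (log2 fold change of 3.53 ± 0.80, adjusted p = 0.0338), and the BMP antagonist Sostdc1, lower there (log2 fold change of -6.74 ± 1.48, adjusted p = 0.0314), and Itgb8, a subunit of a latent TGF-beta activating integrin, lower in osteosarcoma (log2 fold change of -2.26 ± 0.61, adjusted p = 0.0488). Fbn1, Sostdc1 and Itgb8 were named after their values were seen. Of the 7 macrophage markers 4 rose in both tumour types, and the list summed to 418 and 677 CPM in NG2 cells and 1392 to 3318 CPM in the tumours.

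Of 18 intracellular regulators 2 rose and 4 fell in osteosarcoma (33.3% called, against 21.5% of all tested genes), and 3 rose and 2 fell in soft tissue sarcoma (27.8%, against 19.3%). Skil and Tgif1, nuclear co-repressors of Smads, fell in both. Skil, which TGF-beta induces and which represses Smad targets, had 484 and 455 CPM in the NG2 libraries, 57.9 and 48.5 in the osteosarcomas and 83.7 and 78.0 in the soft tissue sarcomas (log2 fold change of -3.14 ± 0.26, adjusted p = 0.00476 and log2 fold change of -2.54 ± 0.26, adjusted p = 0.00863). Tgif1, a homeobox co-repressor, had 732 and 450.0 CPM in the NG2 libraries, 85.0 and 57.3 in the osteosarcomas and 169 and 119 in the soft tissue sarcomas (log2 fold change of -3.05 ± 0.41, adjusted p = 0.00914 and log2 fold change of -2.03 ± 0.39, adjusted p = 0.0228). The risers in both were Fkbp1a, which guards type I receptors against leaky signals, and Strap, a binding partner of Smad7, with log2 fold changes between 1.10 and 1.88. The other calls were Trim33, a ubiquitin ligase that acts on Smad4, and Nedd4l, one that acts on Smad2 and Smad3, both lower in osteosarcoma (-1.25 and -2.87), and Tab1, a kinase adaptor, higher in soft tissue sarcoma (1.87). Nedd4l and Tab1 were named after their values were seen.

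Of 22 tested target genes 8 rose and 3 fell in osteosarcoma (11 of 22 called, against 21.5% of all tested genes), and 6 rose and 5 fell in soft tissue sarcoma (again 11 of 22, against 19.3%), with median log2 fold changes of 1.60 and 1.18. Junb, a transcription factor that many stimuli induce, fell in both (-4.89 and -4.22), as did Bhlhe40, a stress-responsive repressor (-1.89 and -1.89). Col1a1, the main collagen chain of bone, Timp1, a protease inhibitor, and Cdkn2b, a cell cycle inhibitor, rose in both, by 3.42 to 9.74 in osteosarcoma and 5.37 to 6.48 in soft tissue sarcoma. The other rises were Ccn2, Snai2, Dlx5 and Runx2 in osteosarcoma (3.23, 2.62, 9.83 and 2.74), Tgfbi and Pmepa1 in soft tissue sarcoma (2.47 and 2.85) and Snai1 in both (1.495 and 1.99). The other falls were Cdkn1a, also a p53 target, in both (-1.87 and -2.21), and Hey1 and Atoh8 in soft tissue sarcoma (-1.91 and -3.87). These other rises and falls were named after their values were seen. All these genes respond to other signals too, and the lists were not compared with other lists.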

How the data were processed

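RNA was measured in 6 libraries: 2 of NG2 cells, 2 of osteosarcoma and 2 of soft tissue sarcoma. Per the labels' protocols, about 10 ng of total RNA was turned into cDNA by oligo(dT)-primed SMART synthesis and amplified over 20 cycles of PCR before paired-end library construction, a method that does not mark strand. The deposited values are raw counts of reads per Ensembl gene, 1 table per library. The submitters' processing notes name Trim Galore, cutadapt, FastQC, STAR, HTSeq, DESeq2 and the build GRCm38 (mm10); the counting settings are not given in the sources used here. Reads with no gene (19.5% to 33.2% of the assigned, unassigned and ambiguous reads listed) and ambiguous reads were left out.

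Genes with low counts were removed with edgeR's filterByExpr (minimum count 10, minimum total 15), which left 19024 genes. Counts were scaled by TMM and fitted in 1 model over the 3 groups with the quasi-likelihood test of edgeR 4.0.16 (R 4.3.3, residual degrees of freedom 3), with Benjamini-Hochberg adjustment over all tested genes. The biological coefficient of variation was 0.578. Errors are standard errors of the log2 fold change. Where a group had 0 counts, the fold is a lower bound with 3 counts over that group. RPKM used the exon length of GENCODE annotation for GRCm38; of 38561 gene identifiers 36639 were found in it. Scripts were tested on simulated data. DESeq2 1.42.0 and 13 other settings were alternatives.

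The members and lists were chosen with earlier results of these data known, and no p-value was adjusted over a list alone. All 48 members are accounted for; those called in any comparison are given in full, the others by values or ranges, and at most 4 genes per further pathway list and comparison are named in order of p unless stated. Markers of 13 cell types were summed as CPM. The calls of osteosarcoma and of soft tissue sarcoma share the NG2 cell libraries. Promoter windows came from RefSeq on GRCm38.p6.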

Additional observations from a re-analysis of the deposited data

How the results depend on the processing

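None of the member calls changed direction in any alternative. In osteosarcoma against NG2 cells, the 12 higher members became 5 when only the 4 libraries compared were fitted, and the 5 lower members became 1 there and 8 with DESeq2. The genes called over the whole table, 4086, became 1915 in that fit and 6894 with DESeq2. In soft tissue sarcoma against NG2 cells, DESeq2 called 8 members as lower in place of 4, and 6439 genes in place of 3671. Between the tumour types, where no member was called, the fit with no filter on low counts called 1 higher and 1 lower member and 409 genes in place of 27, and DESeq2 called 5 higher and 9 lower members and 1916 genes. There the filter of at least 1 CPM in at least 2 libraries gave 76 genes and the fit of only the 4 libraries 0. With 1 library left out, the lone library was assumed to vary like the other groups. Such fits gave 1 to 14 higher and 0 to 7 lower members and 1343 to 3542 genes in osteosarcoma, 0 to 14 higher and 0 to 6 lower members and 0 to 5038 genes in soft tissue sarcoma, and 0 to 1 higher, 0 to 2 lower members and 0 to 305 genes between the tumour types. The fewer libraries leave fewer degrees of freedom. The cause of these shifts was not tested. Of the 17 calls in osteosarcoma and 14 in soft tissue sarcoma, DESeq2, the stricter filter and leaving out immunoglobulin genes kept 17 and 14.

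The deviations of same-numbered libraries correlated at 0.049, -0.0028 and -0.086 between the pairs of groups. With 2 libraries per group, these values cannot show whether the replicate numbers of the titles paired the samples. With a replicate block, 9 higher and 1 lower members and 2660 genes were called in osteosarcoma, 8 higher and 1 lower members and 2209 genes in soft tissue sarcoma, and 8 genes between the tumour types. Of the low members Nog, Chrd and Id4, edgeR called none against NG2 cells, while DESeq2 called Nog in osteosarcoma (log2 fold change 5.04, adjusted p = 0.0447).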

Other observations

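Further marker lists, summed as CPM, describe what else the libraries held. The 5 Schwann cell genes summed to 270.0 and 346 CPM in NG2 cells and 8.84 to 34.0 CPM in the tumours, and 2 of them fell in osteosarcoma and 4 in soft tissue sarcoma. The 7 fibroblast genes summed to 689.6 and 325 CPM in NG2 replicates 1 and 2, 2397 and 606 in the osteosarcomas and 1848 and 1740.0 in the soft tissue sarcomas. The 6 chondrocyte genes summed to 16.8 and 20.6, 181 and 118 and 229.8 and 115 CPM in the same order, and Sox9 made up nearly all of it in soft tissue sarcoma. The 6 genes of skeletal muscle fibres reached 947 CPM in osteosarcoma replicate 2, the spinal tumour, against 7.28 to 82.7 CPM in the other libraries. Of 5 adipocyte genes, Fabp4, which endothelial cells also express, made up nearly all of the sum, 432 and 870.5 CPM in NG2 cells and 19.8 to 49.6 CPM in the tumours.

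Bmp8a, a BMP ligand outside the 48 genes, had 0.831 and 0 CPM in the NG2 libraries, 25.9 and 54.3 in the osteosarcomas and 0 and 0 in the soft tissue sarcomas. Both osteosarcomas stood above all other libraries, but the test was not passed (adjusted p = 0.0565 against NG2 cells, edgeR's quasi-likelihood test).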
